A study of Homo sapiens with 2 samples.

Results

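ATF4 is a basic leucine zipper (bZIP) transcription factor at the end of the integrated stress response. In that response, kinases sense amino acid shortage, haem shortage, double-stranded RNA or misfolded protein in the endoplasmic reticulum and phosphorylate the initiation factor eIF2α. General translation then slows while the ATF4 transcript, which carries short upstream reading frames, is translated more, so that ATF4 activity can change with little change in its own mRNA. ATF4 pairs with C/EBP-type and related bZIP partners and switches on genes for amino acid supply, for feedback on eIF2α phosphorylation and, when stress lasts, for cell death.

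The 10 genes described here are ATF4, 4 further bZIP factors (ATF3, DDIT3, CEBPB and CEBPG) and 5 feedback genes and effectors (TRIB3, CHAC1, ASNS, PPP1R15A and VLDLR), out of 18417 genes measured. They were taken as the probe sets whose platform annotation gives 1 of these symbols, which came to 11 probe sets, 2 of them for ATF4. The members were chosen by their place in the ATF4 pathway and also on the measured log2 differences of this same comparison, in which genes of the pathway had been seen to be higher. Their differences are therefore a description, and no test was made on them. The cells were K562, an established human line derived from chronic myeloid leukaemia that expresses the BCR-ABL fusion kinase and embryonic globins. The tested culture contained inducible shBmi1, a short hairpin RNA against BMI1, and was kept with doxycycline for 96 h. The control culture contained the same hairpin and received no doxycycline, with no incubation time given. Each group held 1 sample and 1 Affymetrix array, and there was no replicate error to compare a difference with. No culture received doxycycline without the hairpin, so silencing of BMI1, doxycycline itself and any other difference between the 2 cultures cannot be told apart. The promoter that drives the hairpin and the clonal status of the line are not stated.

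All values are log2 RMA values, and differences are with doxycycline minus without. A gene passed the floor when its higher value was at least 6, which 13471 genes and 9 of the 10 members did. BMI1, the hairpin's target, was measured by a probe set it shares with its read-through transcript from COMMD3, which had 10.00 with doxycycline and 10.84 without (-0.84). All 10 measured K562 and erythroid markers passed the floor. The brightest was HBE1, the embryonic epsilon globin gene, at 13.03 with doxycycline and 13.34 without. GATA1, the erythroid master regulator, stood at 10.16 and 10.34 in the same order, and the dimmest, EPOR, at 7.30 and 7.39. Of the 10 measured K562 and erythroid markers, 9 were lower with doxycycline, where 48.8% of all genes past the floor were. The median difference of the 10 was -0.22. The brightest marker of other cells, CD68 of the granulocyte and monocyte list, stood at 10.41 with doxycycline and 10.45 without. Under the floor were 3 of 9 granulocyte and monocyte genes, 7 of 10 T and NK cell genes, 2 of 6 B cell genes and 2 of 9 fibroblast genes. Among markers of other cells past the floor, the median was -0.02 for 6 granulocyte and monocyte genes, -0.08 for 3 T and NK cell genes, -0.07 for 4 B cell genes and 0.06 for 7 fibroblast genes. The part of the lower erythroid markers in the results below was not tested.

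The promoters are shown first, because ATF4 and its partners are known to act through the C/EBP-ATF response element, a composite site with the core TGATGNAA. RefSeq on GRCh38.p14 gave 18 promoter windows for the 10 genes, each from 250 bases before to 50 after an annotated start. Windows were searched on both strands for TGATGNAA and for TGACGTCA, the cyclic AMP response element that ATF3 and related factors can bind. The matches of the 2 motifs did not overlap in any of these windows. TGATGNAA was found for 4 of the 10 genes, against 4.46% of 27305 genes with a window (3.62% of 35116 windows). TGACGTCA was found for 1 of the 10, against 2.25% of all genes (1.85% of windows). A match is a description of letters, not proof of a bound site, and the 6 genes without TGATGNAA in this window may carry it elsewhere.

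The stretches with a match are printed 5′ to 3′ on the gene's strand, with the motif in capitals. They lie at chr7:97872439-97872538 (minus strand) for ASNS, chr15:40953221-40953320 (plus) for CHAC1, chr1:212565157-212565256 (plus) for the upstream ATF3 start, chr19:33374060-33374089 (plus) for the downstream CEBPG start and chr19:48872321-48872420 (plus) for PPP1R15A.
ASNS: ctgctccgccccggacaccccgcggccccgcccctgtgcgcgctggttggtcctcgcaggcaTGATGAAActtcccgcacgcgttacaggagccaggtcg
CHAC1: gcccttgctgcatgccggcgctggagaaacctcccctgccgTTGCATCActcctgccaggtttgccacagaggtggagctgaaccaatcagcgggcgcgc
ATF3: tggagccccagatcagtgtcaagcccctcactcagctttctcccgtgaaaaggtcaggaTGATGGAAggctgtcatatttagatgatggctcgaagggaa
CEBPG: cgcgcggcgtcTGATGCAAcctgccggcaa
PPP1R15A: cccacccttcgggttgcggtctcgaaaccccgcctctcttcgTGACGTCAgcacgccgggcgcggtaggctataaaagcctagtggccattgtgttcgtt

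In ASNS the core began 68 bases before the start, in the orientation spelled. In CHAC1 it began 209 bases before the start and ran in the reverse orientation. The ATF3 core began 191 bases before the upstream start and the CEBPG core 42 bases before the downstream one. The cyclic AMP response element of PPP1R15A began 58 bases before its start. DDIT3, the member with the largest difference, and ATF4 itself had neither motif in their windows, and their 250 bases before the start are given for comparison, from chr12:57520518-57520767 (minus) and chr22:39520309-39520558 (plus).
DDIT3: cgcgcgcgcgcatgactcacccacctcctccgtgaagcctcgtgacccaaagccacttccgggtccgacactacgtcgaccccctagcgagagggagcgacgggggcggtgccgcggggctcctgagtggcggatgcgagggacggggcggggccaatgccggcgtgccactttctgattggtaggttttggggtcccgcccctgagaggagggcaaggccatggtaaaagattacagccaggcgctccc
ATF4: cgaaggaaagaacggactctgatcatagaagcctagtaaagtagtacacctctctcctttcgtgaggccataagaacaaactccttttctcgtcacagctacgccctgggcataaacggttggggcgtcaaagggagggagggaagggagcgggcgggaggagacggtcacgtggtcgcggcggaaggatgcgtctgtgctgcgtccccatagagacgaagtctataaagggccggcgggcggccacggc

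With doxycycline, DDIT3 and ASNS had the largest differences of the 10 genes, most of the others were higher by small amounts, and ATF4 itself gave opposite directions at its 2 probe sets. Of the 9 members past the floor, 8 were higher and 1 lower, where 50.3% of the 13471 genes were higher and 48.8% lower. At least 1.2-fold higher were 3 members (DDIT3, ASNS and TRIB3), where 6.04% of genes reached this size. No member was as much as 1.5-fold higher (0 of 9, where 0.364% of genes were) or lower (0 of 9, where 0.111% were), and 0 were lower by 1.2-fold, where 4.05% of genes were. The median difference of the members was 0.22, a 1.16-fold difference, against 0.00177 over all genes past the floor. Because the set was chosen with this contrast in view, nothing is read from these shares.

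**Figure D1:**
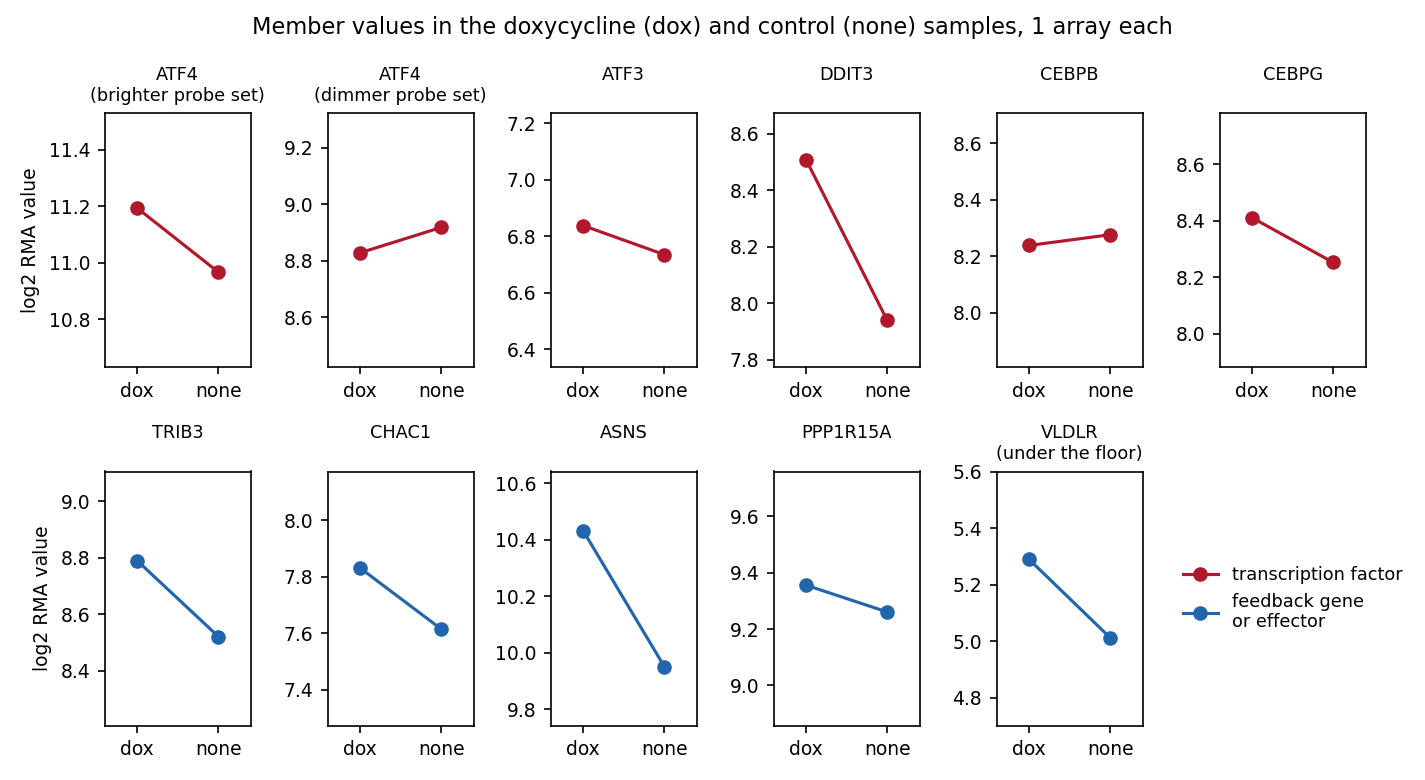
Log2 RMA value (vertical axis, each panel spanning the same height) of every member probe set in the doxycycline sample (dox, left) and the control sample (none, right), 1 array each, so no error bars can be drawn. DDIT3 and ASNS show the steepest lines, and the 2 ATF4 probe sets slope in opposite directions.

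The transcription factors come first. The ATF4 probe set 8180337, the brighter, stood at 11.19 with doxycycline and 10.97 without. Its difference was 0.23, a 1.17-fold difference, and 8.63% of the other 13470 genes had a difference at least as high. The other ATF4 probe set, 8073148, had 8.83 with doxycycline and 8.92 without, and so differed by -0.09. The probe sets thus differed by 0.32 in their estimate for the same gene. Over 554 genes, the pooled SD of a probe set's difference about the mean of its gene was 0.13. A gap between probe sets spreads more widely than that SD. The platform annotation ties the brighter probe set to NM_182810 and the dimmer to NM_001675, both transcripts of ATF4. RefSeq also lists 4 pseudogenes named after ATF4 (ATF4P1, ATF4P2, ATF4P3 and ATF4P4), and whether either probe set also reads them was not tested. The direction of ATF4 mRNA was therefore not settled by these arrays.

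DDIT3 encodes CHOP, a bZIP protein that is induced by ATF4 and promotes cell death under lasting stress. It stood at 8.51 with doxycycline and 7.94 without. The difference of 0.57, or 48.3% more signal, was the largest among the members, lay just under the 1.5-fold size, and was matched or exceeded by 61 other genes (0.453%). Among the 500 genes nearest in level, the robust SD of the differences was 0.14. DDIT3 overlaps MARS1, the cytosolic methionyl-tRNA synthetase gene and itself a known ATF4 target, in the RefSeq table. MARS1 had 11.63 with doxycycline and 11.36 without, and its difference of 0.27 was smaller than that of DDIT3.

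The other factors differed little. ATF3, an immediate stress-induced repressor and activator, had 6.84 with doxycycline and 6.73 without. Its difference of 0.10 was under the robust SD at its level, 0.17. CEBPG, a short C/EBP protein that pairs with ATF4, stood at 8.41 with doxycycline and 8.25 without. Its difference of 0.16 was as large as the robust SD at its level, 0.16. CEBPB, the C/EBP factor that ATF4 can join at composite sites, had 8.24 with doxycycline and 8.28 without (-0.04), and was the only member past the floor that was not higher at the probe set used. All 3 thus lay within the spread of genes of similar level.

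The feedback genes and effectors followed a similar range. ASNS, asparagine synthetase, makes asparagine from aspartate and glutamine and is the classical target through which the amino acid response was defined. It stood at 10.43 with doxycycline and 9.95 without. The difference of 0.48, or 39.6% more signal, was matched or exceeded by 128 other genes (0.950%), and the robust SD at its level was 0.12. RefSeq lists 5 pseudogenes named after ASNS and 3 genes that overlap it (CZ1P-ASNS, RPS3AP29 and SNRPCP9). Whether the ASNS probe set also reads any of them was not tested. TRIB3, a pseudokinase that binds ATF4 and dampens its activity, stood at 8.79 with doxycycline and 8.52 without. Its difference of 0.27, or 20.5% more signal, lay just past the 1.2-fold size, and the robust SD at its level was 0.13.

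CHAC1, a γ-glutamylcyclotransferase that breaks down glutathione, had 7.83 with doxycycline and 7.61 without. It differed by 0.22 where the robust SD was 0.15. PPP1R15A (GADD34) brings protein phosphatase 1 to eIF2α and so ends the response. It had 9.36 with doxycycline and 9.26 without, and the difference of 0.09 lay within the robust SD of 0.14 at its level. VLDLR, the very-low-density lipoprotein receptor and a target of ATF4, was under the floor in both samples, at 5.29 with doxycycline and 5.01 without. Its difference of 0.28 compares with a robust SD of 0.22 among genes that dim, and the share of all probe sets that were dimmer still was 27.3% with doxycycline and 23.6% without. The overlapping antisense transcript VLDLR-AS1 stood at 4.69 with doxycycline and 4.61 without.

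**Figure D2:**
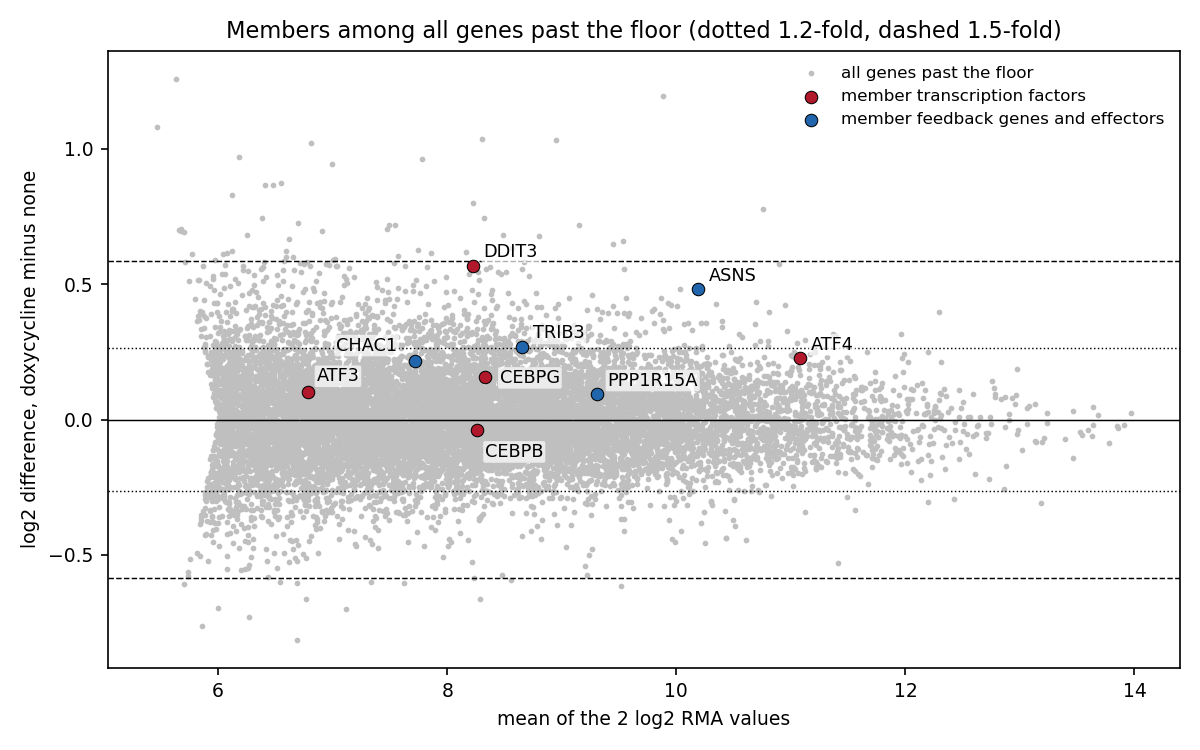
Log2 difference, doxycycline minus none (vertical axis), against the mean of the 2 log2 RMA values (horizontal axis) for the 13471 genes past the floor (grey) and the 9 members past it (red, transcription factors; blue, feedback genes and effectors). DDIT3 at 0.57 and ASNS at 0.48 stand above most genes of their level, while CEBPB, ATF3 and PPP1R15A lie within the cloud.

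Factors and effectors did not separate. For comparison with the counts here, 50.3% of all genes past the floor were higher. The 5 factors had a median difference of 0.16 and ran between -0.04 and 0.57, and 4 were higher. Past the floor, the 4 effectors had a median of 0.24 and ran between 0.09 and 0.48, and 4 were higher. The medians were 0.08 apart, and the 2 ranges overlapped over most of their length, with a factor, DDIT3, at the top of both. At the dimmer ATF4 probe set, an alternative chosen after seeing the data, the factor median was 0.10 and 3 of the 5 factors were higher.

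Genes upstream of ATF4 were compared next. All 4 eIF2α kinases were higher with doxycycline, by 0.05 to 0.18, with a median of 0.10. Over all genes past the floor, 50.3% were higher and 6.04% at least 1.2-fold higher, a size that 0 of the 4 kinases reached. EIF2AK2 (PKR), which senses double-stranded RNA, had 9.51 with doxycycline and 9.33 without, and differed by 0.18 where the robust SD was 0.14. EIF2AK3 (PERK), the sensor of the endoplasmic reticulum, differed by 0.12 (robust SD 0.13) and EIF2AK1 (HRI), the haem-regulated kinase, by 0.08 (robust SD 0.11). EIF2AK4 (GCN2), the sensor of uncharged tRNA, differed by 0.05 (robust SD 0.15). These are mRNA levels and carry no information on kinase activity or on eIF2α phosphorylation.

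Over all genes past the floor, 50.3% were higher, 48.8% lower and 6.04% at least 1.2-fold higher. Of 20 other genes of eIF2 control, 13 were higher and 7 lower, with a median of 0.08. IMPACT, an inhibitor of GCN2 activation, was the only one that reached 1.2-fold, with 8.35 in treated cells and 8.01 in untreated ones, or 0.34 apart where the robust SD was 0.13. PPP1R15B, the constitutive partner of the eIF2α phosphatase and the relative of PPP1R15A, differed by 0.19. The eIF2β gene EIF2S2 differed by 0.17, MCTS1, a factor of translation re-initiation, by 0.14, and the phosphatase catalytic gene PPP1CB by 0.14.

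Downstream, the list of other ATF4 targets had 46 genes past the floor. Of these, 45 were higher in the doxycycline sample, where 50.3% of all genes past the floor were. The remaining gene was EIF4EBP1 (-0.08), which encodes the translation inhibitor 4E-BP1. The glutamine transporter gene SLC1A5 counted as higher by its brighter probe set (0.06), but its dimmer one differed by -0.21. The list's median was 0.23, beside 0.22 for the members. At least 1.2-fold higher were 17 of its genes, where 6.04% of all genes past the floor were. Past 1.5-fold were 6, each with a larger difference than DDIT3, where 0.364% of all genes past the floor were at least 1.5-fold higher. They included the serine synthesis genes PHGDH (2.29-fold) and PSAT1 (1.57-fold), the cystine exchanger gene SLC7A11 (2.04-fold) and the folate enzyme gene ALDH1L2 (1.95-fold). The others were the tRNA synthetase gene WARS1 (1.71-fold) and the mTORC1 inhibitor gene DDIT4 (1.65-fold). In RefSeq windows, 15 of the 37 listed targets with a promoter held TGATGNAA (40.5%), where 4.46% of all genes did. Among targets past the floor, the median difference was 0.22 for the 14 that held it and 0.24 for the 21 whose windows did not, while 11 had no window here. This split was made after the values were known. The list itself was chosen with earlier results of these data known, so nothing is read from the list's shares.

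**Figure D3:**
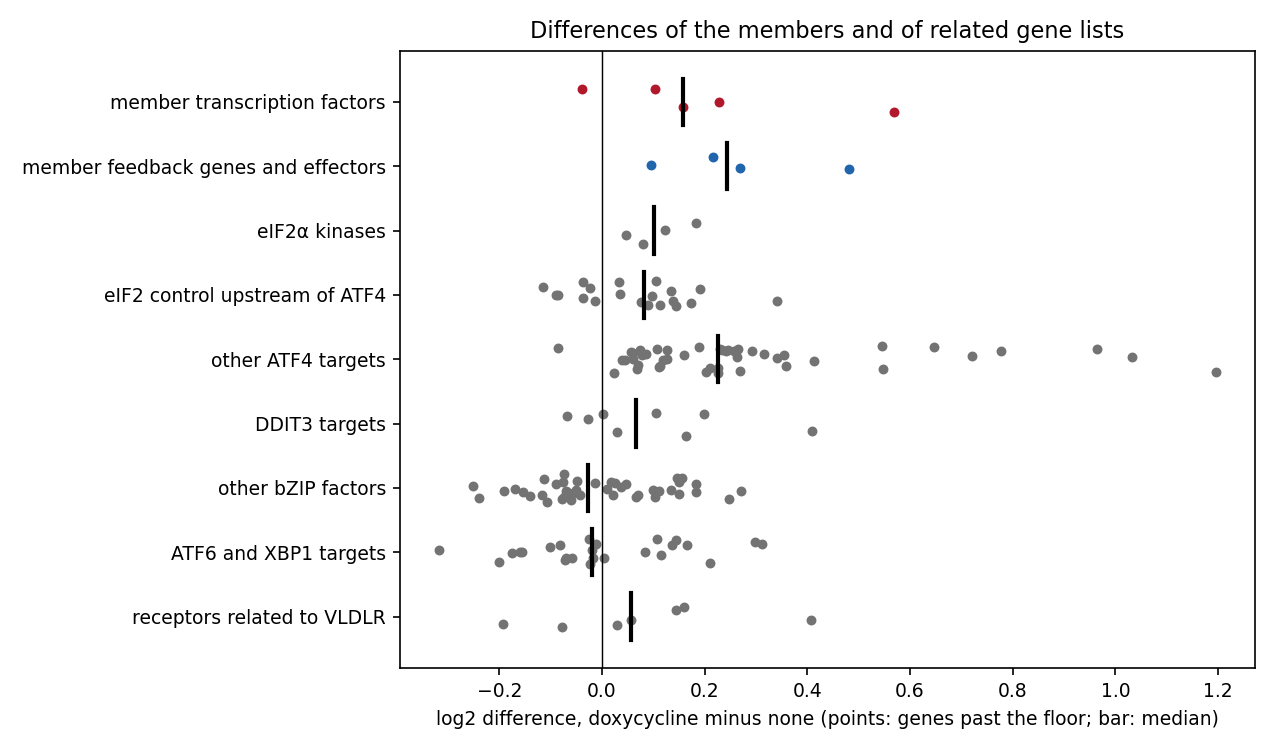
Log2 difference, doxycycline minus none (horizontal axis), of each gene past the floor (points) in the members and in 7 related lists, with the median of each list as a bar. The other ATF4 targets have a median of 0.23 and lie almost wholly right of 0, whereas the other bZIP factors (-0.03) and the ATF6 and XBP1 targets (-0.02) spread to both sides. The lists were chosen with earlier results of these data known. ATF5 and JDP2 are in the lists of other ATF4 targets and of other bZIP factors.

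Of the genes that DDIT3 is known to induce, 6 of 8 were higher, where 50.3% of all genes past the floor were. The median of the 8 was 0.07, and 1 gene was past 1.2-fold, where 6.04% of all genes were. TNFRSF10B, the death receptor DR5, was that gene, with 9.51 in the treated cells and 9.10 in untreated ones. Its difference of 0.41 was matched or exceeded by 1.67% of other genes. Without it the median of the remaining 7 was 0.03. The BH3-only gene PMAIP1 (NOXA) differed by 0.20, the growth arrest gene GADD45A by 0.16, the oxidoreductase gene ERO1A by 0.10 and the BH3-only gene BCL2L11 (BIM) by -0.07.

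The other branches of the unfolded protein response run through ATF6 and XBP1 and raise chaperones and degradation factors of the endoplasmic reticulum. Of 25 such genes, 10 were higher and 15 lower, where 50.3% and 48.8% of all genes past the floor were. The median of the 25 was -0.02. At least 1.2-fold higher were 2 and lower by that size 1, where 6.04% and 4.05% of all genes were. SDF2L1, a chaperone cofactor, differed by -0.32, DERL3, a derlin of protein degradation, by -0.20, EDEM1, a degradation factor, by 0.31, SEC24D, a coat protein of vesicles leaving the reticulum, by 0.30, and SEL1L, a ubiquitin ligase adaptor, by 0.21.

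Relatives of the members showed no shared direction. Of 42 other bZIP factors past the floor, 20 were higher and 22 lower, where 50.3% and 48.8% of all genes were. The median of the 42 was -0.03, and 1 was at least 1.2-fold higher, where 6.04% of all genes were. CREBRF (0.27), which encodes a regulator of the CREB3 factor, alone reached 1.2-fold, and NFE2 (-0.25), an erythroid factor, CREB3L4 (0.25), CEBPE (-0.24), a granulocyte factor, and MAFA (-0.19) followed in size. The C/EBP genes closest to CEBPB were slightly lower, with CEBPA at -0.05 and CEBPD at -0.08, both named after their values were seen.

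CHAC2, the close relative of CHAC1, went the other way, at 6.35 with doxycycline and 6.71 without. Its difference was -0.36 where the robust SD was 0.19, and 162 of the other 13470 genes were as low or lower. CHAC1 and CHAC2 thus differed in opposite directions, by 0.22 and -0.36, and CHAC2 was near the floor. TRIB2 differed by 0.13 and TRIB1 by -0.06, beside 0.27 for TRIB3. ASNSD1, which shares a domain with ASNS, differed by -0.03. Among receptors related to VLDLR, 7 of 11 measured genes passed the floor. Of these, 5 were higher, where 50.3% of all genes past the floor were, and the median of the 7 was 0.06. LRP12 was the highest at 0.41, LRP11 differed by 0.16 and LRP5 by 0.14, LRP1 by -0.08 and LRP10, the lowest, by -0.19, while LRP8, the receptor most like VLDLR, differed by 0.06.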

How the data were processed

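Per the labels' protocols, 0.3 µg of total RNA per sample (integrity number 10) was converted to whole-transcript sense target and biotin-labelled, with 1 array per sample. Per the submitters' processing notes, the authors used RMA in Expression Console 1.1.1, which gave the deposited log2 values. RMA shrinks differences of dim probe sets, and the arrays that were normalized together are not named. The base of the log is taken as 2 from RMA and the range, 1.61 to 14.6. The series' design text names an HG-U133 Plus2 array, but the annotation given for the platform, used here, and its probe set numbers belong to a Gene ST array.

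The table held 33297 probe sets, 19460 with 1 symbol, 1754 with several and 12083 with none here. Symbols were updated through Entrez IDs to RefSeq on GRCh38.p14 (19429 matched), and 0 probe sets with several symbols held a member. A gene took its probe set with the highest mean. The robust SD is 1.48 times the median absolute deviation over the 500 genes nearest in mean level. With 1 array per group no p-value was computed, and the number of arrays limits the precision. The members and gene lists were chosen with earlier results of these data known. Named were all members, BMI1, the eIF2α kinases, the members' paralogues, and of other lists the genes past 1.5-fold or else up to 5 with the largest absolute difference. Also named, outside this rule, were MARS1, EIF4EBP1, PSPH, MTHFD2, SLC1A5, FGF21, CEBPA, CEBPD, VLDLR-AS1 and the cell markers given. Some of these were picked after their values were seen. Genes without a probe set of 1 symbol (GPT2, CBS, ATF1, ATF6B, MAFK, PDIA3 and others) were not analysed here. The 1.5-fold cut, the sign of a difference and the robust SD were tested on simulated differences, and the other steps were not tested in this way. The differences added there were larger than that of any member, so signs at the members' sizes were not tested. The simulated spread was drawn with the robust SDs of these data, so it checks the calculation only. Python 3.11.15, numpy 2.4.6, pandas 2.3.3 and statsmodels 0.14.6 were used.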

Additional observations from a re-analysis of the deposited data

How the results depend on the processing

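The alternatives tried were averaging a gene's probe sets (mean or median), centring, quantile normalization, a loess trend (span 0.3), no floor and floors of 5, 7 and 8, lists without their largest member, and, chosen after seeing the data, the dimmer ATF4 probe set. The member median ran from 0.16 to 0.23, the factor median from 0.10 to 0.19 and the effector median from 0.22 to 0.27. Between 2 and 4 members were at least 1.2-fold higher, since TRIB3 missed the size after quantile normalization (0.26) and VLDLR counted once the floor was 5 or absent. In each of these alternatives 0 members reached 1.5-fold. ATF4 differed by 0.07 as a mean or median over its probe sets and by -0.09 at the dimmer one, and each of the other 8 members past the floor kept its sign in each alternative whose floor it passed. Other ATF4 targets kept a median of 0.23 to 0.24, ATF6 and XBP1 targets one of -0.02 to -0.0099, and that of other bZIP factors ran from -0.04 to 0.01, so its sign was not settled. The DDIT3 target median ran from 0.03, without TNFRSF10B, to 0.08. Keeping probe sets with several symbols was not tried. It could change no member's own values, since 0 held a member. The other gene lists, the robust SDs and the shares over all genes could change. No paired analysis was possible because each group held 1 sample. Dim members such as VLDLR and ATF3 are limited by signal over background, and detection calls were not used here.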

Other observations

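Among the other ATF4 targets, 3 genes had a further probe set, and these are given because ATF4 itself gave opposite directions at its probe sets. PSPH, the last enzyme of serine synthesis, differed by 0.34 where it was brighter and by 0.15 where it was dimmer. MTHFD2, a mitochondrial folate enzyme, differed by 0.20 and 0.17 in the same order. SLC1A5, a glutamine transporter, was measured at 0.06 and -0.21, again brighter first, which leaves its direction unsettled as well. FGF21, a hormone gene under ATF4 control, was under the floor in both samples, at 5.15 with doxycycline and 5.26 without.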
